A study of Mus musculus with 3 samples.

Results

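Transcript levels of complement genes were examined in macrophages from mice of the 4T1 model, where mammary carcinoma cells derived from BALB/c mice are placed in the mammary fat pad of that strain and spread to the lung. The set comprised 9 genes for components, regulators and receptors of complement (*C1qa*, *C1qb*, *C1qc*, *C3*, *Cfb*, *Cfp*, *C3ar1*, *C5ar1* and *Serping1*), taken from 18193 genes on the array. A gene was read from every probe set, the group of probes that reports 1 transcript, to which the platform annotation gives that symbol alone. This yielded 14 probe sets for 8 of the genes, and *C3*, the component on which all routes of activation converge, was not analysed here. There were 3 groups with 1 array each. BMDM came from marrow of mice without tumor and matured in culture, pTAMs were tumor-associated macrophages of the primary 4T1 tumor, and mTAMs those of the lung carrying its metastases in matched animals. TAMs were taken at 5 weeks of tumor growth per the labels and, per the study's methods, sorted after enzymatic digestion. The study sorted TAMs by CD11b and F4/80 at the surface, and for some experiments took only those without the surface marker Ly6C. Whether the array cells were also Ly6C negative is not stated. No genetic change or drug is named for any group, and the labels give neither age nor the number of animals behind an array. BMDM differ from both TAM groups in culture as well as in tumor exposure, and these cannot be told apart. Because mTAMs were sorted from lung tissue, the lung's own macrophages can be among them.

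Complement is a cascade of plasma proteins that marks microbes, immune complexes and dying cells for uptake. The classical pathway starts with C1q, a bundle built in equal parts from the chains that *C1qa*, *C1qb* and *C1qc* encode, which carries the proteases C1r and C1s. C1 inhibitor, the product of *Serping1*, blocks those proteases. The alternative pathway amplifies through factor B (*Cfb*), the protease subunit of its convertase, and properdin (*Cfp*), which stabilizes the convertase. The fragments C3a and C5a then act on the G protein-coupled receptors encoded by *C3ar1* and *C5ar1*. Unlike most complement proteins, which the liver secretes, C1q is made largely by macrophages and dendritic cells, and C1q is widely used as a marker of macrophages in tumors.

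The values are RMA values on the log2 scale, so a difference of 1 is 2-fold. Differences were read between arrays for the same probe set, and levels of different genes were not compared. Values at or below 5.3, the level of sensory receptor genes that macrophages have no known use for, were treated as background, and a fold against such a value is a lower bound. The summed linear signal of a marker list is an exception to both rules. It adds all genes of the list, those at or below 5.3 included. Genes of high level therefore weigh most, and part of each such sum can be background. Differences of at least 2-fold were called. With 1 array per group no difference has an error across animals and no test was possible. The spread between probe sets of the same gene was the only technical spread available, and the SD of the log2 difference between them was 0.43 (pTAMs and BMDM), 0.52 (mTAMs and BMDM) and 0.28 (mTAMs and pTAMs). Both comparisons against BMDM use the same BMDM array. The median difference over all genes compared was -0.05, -0.11 and -0.06 in the same order. Of 9 macrophage markers on the array, all 9 were above the floor on each array, among them *Adgre1* (F4/80), *Csf1r* and *Lyz2*, so the sorted populations carried the transcripts their label calls for.

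In pTAMs against BMDM, 4 of the 7 complement genes compared were at least 2-fold higher (*C1qa*, *C1qb*, *C1qc* and *Cfb*), against 8.78% of 11859 genes in all. Only *C3ar1* was lower, against 7.5% of all genes, and *Cfp* and *C5ar1* were within 2-fold. *Serping1* lay below the floor on both arrays and was not compared. In mTAMs against BMDM, 5 of 8 were higher, the same 4 and *Serping1*, against 11.5% of 11945 genes, and again only *C3ar1* was lower, against 14.4%. Over all genes this comparison held 1368 higher and 1715 lower, a split that cyclic loess normalization turned to 1548 and 1258, with the median of all genes going from -0.11 to 0.00, while the counts of complement genes stayed at 5 and 1. The median log2 difference of the complement genes was 2.86 in pTAMs and 2.96 in mTAMs. Between both tumor-derived populations most complement genes stood close together. In mTAMs against pTAMs, *Serping1* was higher, against 5.36% of 11801 genes, *C3ar1* was lower, against 2.58%, and 6 of 8 were within 2-fold, with a median of -0.24. The genes were chosen with results of these arrays known, so these shares describe the set and are not a test of it. In sorted bulk samples, a change in the number of cells that carry a transcript and a change in its amount per cell cannot be told apart.

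**Figure D1:**
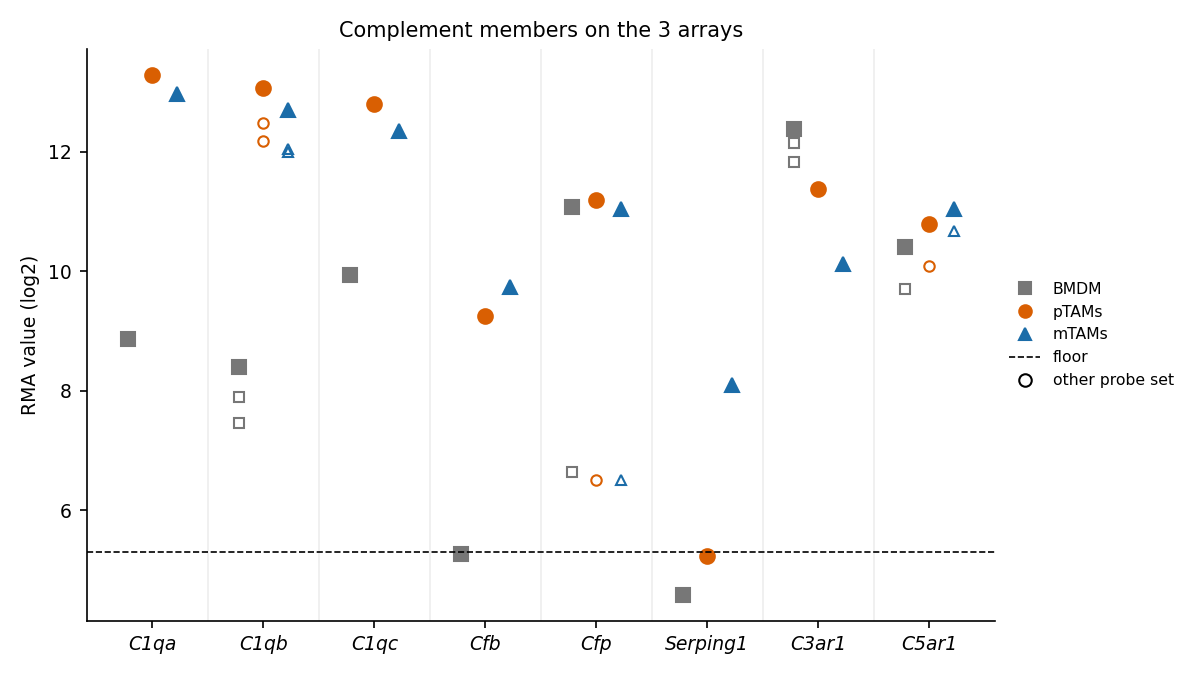
RMA values (vertical axis, log2) of the 8 complement genes (horizontal axis) in BMDM, pTAMs and mTAMs. Filled symbols are the probe set used for the gene, open symbols its other probe sets, and the dashed line is the floor of 5.3. The C1q chains and *Cfb* lie far higher on both TAM arrays than on BMDM, *C3ar1* steps down from 12.38 to 11.37 and 10.12, and *Serping1* is above the floor on the mTAM array alone.

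The chains of C1q were well above BMDM in both TAM populations. *C1qa*, the A chain, was 8.87 in BMDM, 13.28 in pTAMs and 12.96 in mTAMs. *C1qb*, the B chain, was 8.40, 13.06 and 12.70 on the same arrays, and *C1qc*, the C chain, was 9.94, 12.80 and 12.35. All 3 chains were thus lowest in BMDM, with the TAM arrays close to each other. The pTAM level was 21.3-fold above BMDM for *C1qa*, 25.3-fold for *C1qb* and 7.26-fold for *C1qc*. In mTAMs it was 17.0-fold, 19.7-fold and 5.31-fold. Among the 11859 genes compared in pTAMs, by measured difference, *C1qb* ranked at position 73 and *C1qa* at position 92 from the top, and *C1qc* at position 278. The chains therefore went the same way but not by the same factor on these probe sets. BMDM were themselves above the floor for every chain.

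The 3 probe sets of *C1qb* gave log2 differences from 4.28 to 5.01 in pTAMs and from 4.09 to 4.57 in mTAMs, so the result did not rest on 1 of them. Both of the additional *C1qb* probe sets are of the design that Affymetrix marks as able to bind related transcripts. From pTAMs to mTAMs all 5 probe sets of the C1q chains were slightly lower, by -0.32 for *C1qa*, from -0.44 to -0.19 for *C1qb* and by -0.45 for *C1qc*. These differences are of the order of the SD of 0.28 between probe sets, and no order between pTAMs and mTAMs can be read from them. Cyclic loess, quantile normalization and the other settings kept the differences between -0.46 and -0.12.

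The start regions of the C1q genes are shown because these genes lie close together on mouse chromosome 4 and had matching patterns. RefSeq sequences (GRCm38.p6) were at hand for *C1qb* and *C1qc*, and the 250 bases upstream of each start site are printed 5′ to 3′ on the strand of the gene, which is the minus strand for both. Capitals mark the letters GAGGAA on either strand, the core that the myeloid factor PU.1 binds, and TGCTGA on either strand, part of the site of MAF factors.
C1qb (chr4:136886201-136886450, minus strand): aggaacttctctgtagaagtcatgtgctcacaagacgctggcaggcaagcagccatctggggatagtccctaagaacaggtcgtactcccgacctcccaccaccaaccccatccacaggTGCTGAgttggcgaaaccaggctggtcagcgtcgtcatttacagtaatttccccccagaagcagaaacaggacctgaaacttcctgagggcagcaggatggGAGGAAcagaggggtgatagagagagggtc
C1qc (chr4:136892915-136893164, minus strand): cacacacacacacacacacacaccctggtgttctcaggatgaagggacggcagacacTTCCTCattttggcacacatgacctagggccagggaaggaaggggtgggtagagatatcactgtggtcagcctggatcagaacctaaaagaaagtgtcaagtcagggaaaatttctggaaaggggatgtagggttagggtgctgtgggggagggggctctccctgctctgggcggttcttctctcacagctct
The *C1qb* region held 1 match to each, and these did not overlap. The *C1qc* region held 1 match to the PU.1 core, on the opposite strand and so printed as TTCCTC, and none to the MAF letters. Such matches are common, since 23.3% of 32851 promoter regions of the same length held the PU.1 core and 16.1% the MAF letters. The STAT-type motifs TTCNNNGAA (in 7.02% of all regions) and TTCNNNNGAA (5.85%) and the interferon-stimulated response element (2.98%) had no match in either region, or in those of *C3ar1*, *C5ar1* and *Cfp*. The study's own STAT6 motif also allows a shorter run of N, which was not part of the search. The printed *C1qc* region does hold letters with that shorter run, so a lack of STAT6-type letters cannot be claimed for it. A match of letters is a description and not evidence of binding.

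To set C1q beside other genes of the macrophages that make it, a list of 14 measured genes commonly found with C1q in resident and tumor macrophages was read in the same way. In pTAMs 5 of 14 were at least 2-fold higher than in BMDM (8.78% of all genes) and 4 lower (7.5%), with a median log2 difference of 0.20. In mTAMs 3 were higher (11.5% of all genes) and 6 lower (14.4%), with a median of -0.12. Higher in both were *Apoe*, *Lyve1* and *Timd4*, the last by a bound under 2-fold in pTAMs, and *Cd163* and *Cx3cr1* were higher in pTAMs. Lower in both were *Trem2*, *Folr2*, *Gas6* and *Hpgds*, and *Pf4* and *Maf* were lower in mTAMs. *Apoe*, the gene of apolipoprotein E, was 10.21 in BMDM, 13.42 in pTAMs and 13.36 in mTAMs. *Lyve1*, a hyaluronan receptor gene, was 3.65, 7.48 and 7.76, so its BMDM value was below the floor and its differences are bounds of 4.53-fold and 5.5-fold. In contrast, *Trem2*, a lipid-sensing receptor gene, was 11.87, 9.95 and 9.45, and *Folr2*, a folate receptor gene, 12.05, 9.33 and 8.73, both lower on the TAM arrays. The list therefore went both ways on the arrays where the C1q chains were high.

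**Figure D2:**
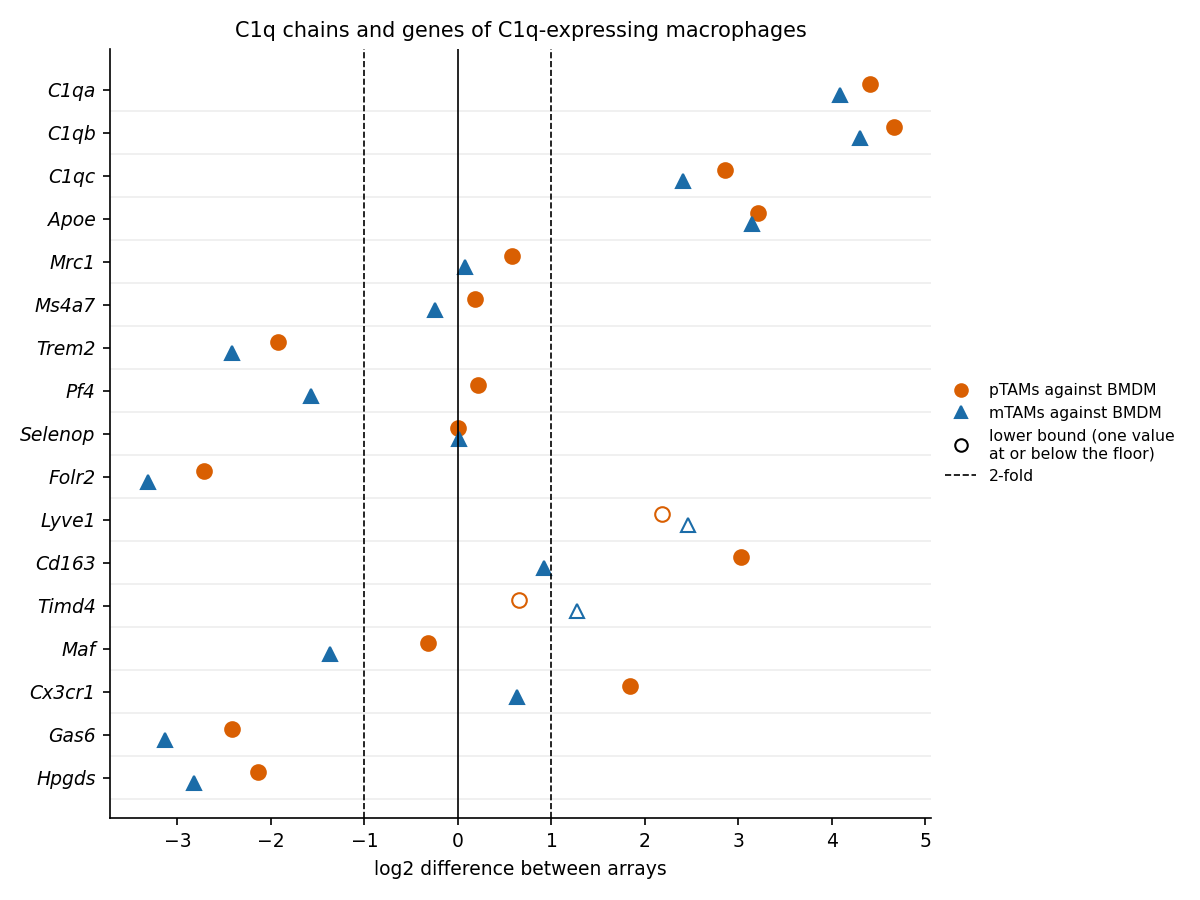
Log2 difference from BMDM (horizontal axis) of the C1q chains and of 14 genes commonly found with C1q in macrophages (vertical axis), in pTAMs (circles) and mTAMs (triangles), 1 array per group, with the shared BMDM array as the reference. Open symbols are lower bounds and dashed lines mark 2-fold. The C1q chains, *Apoe* and *Lyve1* lie to the right, whereas *Trem2*, *Folr2*, *Gas6* and *Hpgds* lie to the left on both arrays.

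Across all genes, those whose pattern was most like that of C1q were found by the distance between their log2 differences from BMDM and the median of the C1q chains (4.41 in pTAMs and 4.09 in mTAMs), over 12017 genes and 3 arrays. The nearest was *H2-Aa*, the alpha chain of an MHC class II molecule, at 8.94, 13.35 and 12.97 in BMDM, pTAMs and mTAMs. Its distance was 0.06. The next 4, *Adamtsl4*, *F2r*, *Lamb1* and *B3gnt5*, had distances from 0.06 to 0.25, but their BMDM values from 4.29 to 4.58 lay below the floor, so their differences are bounds and their likeness to C1q is uncertain. With 3 arrays many genes can share a pattern.

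The alternative pathway was represented by *Cfb* and *Cfp*, which behaved differently. *Cfb*, for factor B, was 5.27 in BMDM, just below the floor, 9.26 in pTAMs and 9.73 in mTAMs. It was therefore at least 15.6-fold higher in pTAMs and at least 21.6-fold higher in mTAMs. From pTAMs to mTAMs it differed by 0.47 on the log2 scale, within 2-fold. *Cfb* was the only member other than *Serping1* that was at background in cultured macrophages and clearly above it in a TAM population. It was read from 1 probe set. *Cfp*, for properdin, was 11.08, 11.20 and 11.04, and its second probe set 6.64, 6.51 and 6.51. Differences of *Cfp* ran from -0.16 to 0.12 over both probe sets and all 3 comparisons, which is less than the spread between probe sets. The alternative pathway genes of the wider list that were on the array, *Cfi* and *Cfhr2*, were below the floor everywhere.

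Epithelial cells are another known source of factor B. Against BMDM, markers of epithelium or carcinoma went the same way as *Cfb*. Higher were 7 of the 8 compared in pTAMs (8.78% of all genes) and 5 of 7 in mTAMs (11.5%). In mTAMs against pTAMs they did not: 0 of 8 were higher (5.36%) and 2 lower (2.58%), with a median of -0.73, whereas *Cfb* differed by 0.47. The summed linear signal of 10 markers was 381 in BMDM, 4460 in pTAMs and 2420 in mTAMs. *Krt18* was 3.78, 9.77 and 8.92, whereas *Krt14* and *Cldn7* were below the floor on all arrays. Lung epithelium markers summed to 265, 292 and 5320, mostly through *Scgb1a1*, the club cell secretory gene (4.12, 4.21 and 12.17), with 4 of 7 above the floor in pTAMs and 7 of 7 in mTAMs. The part of epithelial transcripts in the *Cfb* values was not tested.

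*Serping1*, for C1 inhibitor, set mTAMs apart from the other populations. It was 4.59 in BMDM and 5.23 in pTAMs, both below the floor, and 8.10 in mTAMs. The mTAM level exceeded both by at least 6.96-fold. The proteases that C1 inhibitor blocks were in the wider list. *C1s1*, for C1s, had nearly the same pattern as *Serping1*, at 4.03 in BMDM, 4.44 in pTAMs and 7.22 in mTAMs, with mTAMs at least 3.78-fold above both. *C1ra*, for C1r, was already higher in pTAMs, at 6.32, 7.95 and 8.39, so it was 3.1-fold above BMDM in pTAMs and 4.2-fold in mTAMs. On these arrays the C1q chains were therefore high in both TAM populations, *C1ra* in both, and *C1s1* and *Serping1* above background in mTAMs alone. Each of *Serping1*, *C1s1* and *C1ra* was read from only 1 probe set.

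C1r, C1s and C1 inhibitor are well known products of fibroblasts. Fibroblast markers were higher on the mTAM array too. Of 10 markers, 7 were above the floor in a TAM population. Of these, 5 were at least 2-fold higher than BMDM in pTAMs (8.78% of all genes) and 5 in mTAMs (11.5%). In mTAMs against pTAMs 3 were higher (5.36%). Their summed linear signal was 323 in BMDM, 1200 in pTAMs and 5190 in mTAMs. *Dcn*, for decorin, was 5.32, 7.02 and 10.28, and *Col3a1*, for type III collagen, 4.75, 8.15 and 11.09. *Lum*, *Postn* and *Thy1* were at or below the floor on all 3 arrays. Mesothelial markers, of other cells that cover the lung, summed to 134, 196 and 270, with *Wt1* and *Lrrn4* below the floor throughout. The part of fibroblast transcripts in *Serping1*, *C1s1* and *C1ra* was not tested.

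**Figure D3:**
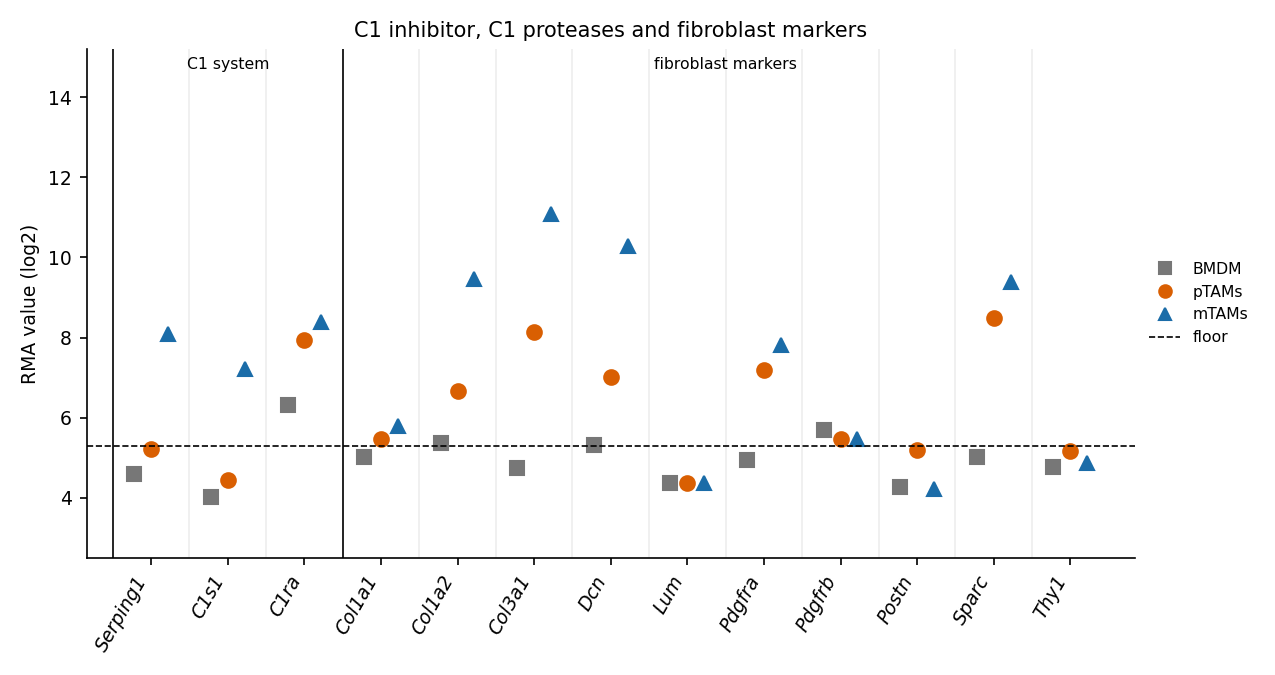
RMA values (vertical axis, log2) of *Serping1*, *C1s1*, *C1ra* and 10 fibroblast markers (horizontal axis), with a symbol for each group and a dashed line at the floor (5.3). *Serping1* (8.10) and *C1s1* (7.22) are above the floor only in mTAMs, where *Dcn* and *Col3a1* are highest too, while *Lum*, *Postn* and *Thy1* stay at or below the floor.

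The receptors for the small fragments went in different directions. *C3ar1*, for the C3a receptor, was 12.38 in BMDM, 11.37 in pTAMs and 10.12 in mTAMs. Its other probe sets gave 12.15, 11.39 and 10.11, and 11.82, 11.36 and 10.13. All 3 probe sets had the same order and nearly the same TAM values, and differed mainly on the BMDM array. The gene was 4.79-fold lower in mTAMs than in BMDM and 2.38-fold lower than in pTAMs, where the probe sets gave log2 differences from -1.28 to -1.23, and it ranked at position 144 of 11801 from the bottom. The lower level in pTAMs than in BMDM (2.01-fold) was only just called. The other probe sets gave -0.76 and -0.46, the mean of all of them -0.74 and cyclic loess normalization -0.96, none of which reaches 2-fold.

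*C5ar1*, for the main C5a receptor, was 10.41 in BMDM, 10.79 in pTAMs and 11.05 in mTAMs, and its second probe set 9.70, 10.09 and 10.67. Both probe sets had the order opposite to *C3ar1*, but every difference was within 2-fold, with at most 0.97 on the log2 scale in mTAMs against BMDM. C5a receptors are abundant on neutrophils, and neutrophils also store properdin. The linear signal of neutrophil markers summed to 1750 (BMDM), 33200 (pTAMs) and 76800 (mTAMs). At least 2-fold higher than BMDM were 9 of 11 in pTAMs (8.78% of all genes) and 10 of 11 in mTAMs (11.5%). In mTAMs against pTAMs 8 of 11 were higher (5.36%). *S100a9* was 7.73, 13.75 and 14.30. All 11 were above the floor in both TAM populations. The part of neutrophil transcripts in *C5ar1* and *Cfp* was not tested.

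**Figure D4:**
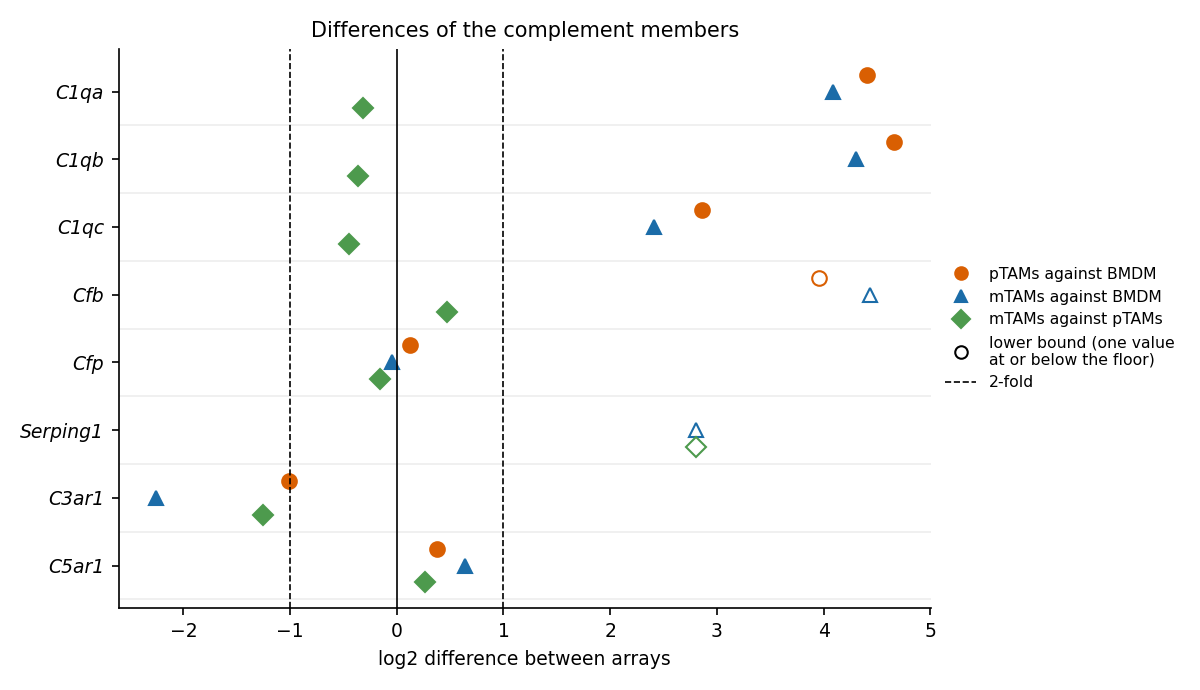
Log2 differences (horizontal axis) of the 8 complement genes (vertical axis) for pTAMs against BMDM (circles), mTAMs against BMDM (triangles) and mTAMs against pTAMs (diamonds), 1 array per group. Open symbols are lower bounds and dashed lines mark 2-fold. Between mTAMs and pTAMs only *Serping1* and *C3ar1* lie outside the 2-fold lines, on opposite sides.

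Other complement genes were read from a list of 49, of which 40 were on the array and 24 above the floor on at least 1 array. In pTAMs against BMDM, 5 of 23 were at least 2-fold higher, against 8.78% of all genes (*C1ra*, *C6*, *Clu*, *Itgam* and *Itgax*) and 3 lower, against 7.5% (*Colec12*, *Cd59a* and *Cd93*), with a median log2 difference of 0.00. In mTAMs against BMDM, 7 of 24 were higher, against 11.5% of all genes (*C1ra*, *C1s1*, *C2*, *Fcna*, *Clu*, *Itgam* and *Itgax*) and 5 lower, against 14.4% (*Colec12*, *Cd59a*, *Cd93*, *C1qbp* and *Lrp1*), with a median of 0.30. In mTAMs against pTAMs, 2 of 23 were higher, *C1s1* and *Vsig4*, against 5.36% of all genes, and 0 lower, against 2.58%, with a median of 0.00.

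Among the other initiators and proteases, *C2*, whose product forms the classical convertase, was 5.98, 6.0 and 6.98 in BMDM, pTAMs and mTAMs. The difference of 1.00 just met the threshold, and its other probe sets gave 0.22 and 0.85. *Fcna*, for ficolin A, a lectin that starts the lectin pathway, was 8.63, 9.45 and 9.69. *Colec12*, for a membrane scavenger receptor with a collectin domain, was 11.02, 8.92 and 7.94, the largest negative difference of the list against BMDM on the probe sets used. *Masp1*, *Masp2* and *Fcnb* were within 2-fold in each comparison on the probe set used, while another *Masp1* probe set gave 4.34, 6.28 and 5.43, the first below the floor. Of the terminal components only *C6* was clearly above the floor, at 6.17, 7.87 and 7.16.

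Regulators split likewise. *Clu*, for clusterin, which binds the terminal complex in fluid, was 7.34, 9.21 and 9.05 on the probe set used. Its other probe sets started from 3.41 to 5.03 in BMDM, at or below the floor, and gave larger measured differences, up to 5.38 in pTAMs, so its direction was shared but its size was not. *Cd59a*, for the membrane inhibitor of the terminal complex, was 8.16, 6.58 and 6.28, and its second probe set 8.0, 5.64 and 5.25. *Cr1l*, for Crry, the main convertase inhibitor on mouse cells, was 9.67, 9.54 and 10.12, within 2-fold. *Cd46*, *Sez6* and *Susd4* differed by at most 0.05 on the log2 scale and lay close to the floor.

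Receptors for bound complement fragments and for C1q also went both ways. *Itgax*, for the alpha chain of complement receptor 4, was 6.62, 9.56 and 9.22, which was 7.67-fold and 6.06-fold above BMDM. *Itgam*, for the alpha chain of complement receptor 3, was 10.46, 11.90 and 11.61, but its product CD11b was itself used for the sort. Their shared partner *Itgb2* was 11.99, 12.48 and 12.69, within 2-fold. *Vsig4*, for the complement receptor of resident macrophages, was near the floor, at 5.91, 4.95 and 6.20, so mTAMs exceeded pTAMs by at least 1.87-fold and no more can be said of its size. *Cd93*, once named as a C1q receptor, was 12.31, 11.14 and 10.43, and all 5 of its probe sets were lower in both TAM populations, 1 of them below the floor throughout. *C1qbp*, for a mitochondrial protein that binds C1q heads, was 11.93, 11.80 and 10.91, and *Lrp1*, for an uptake receptor, 11.39, 10.84 and 10.13, while the second *Lrp1* probe set gave 6.49, 7.51 and 6.49. *Calr*, for calreticulin, was 12.74, 12.45 and 12.24, within 2-fold.

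**Figure D5:**
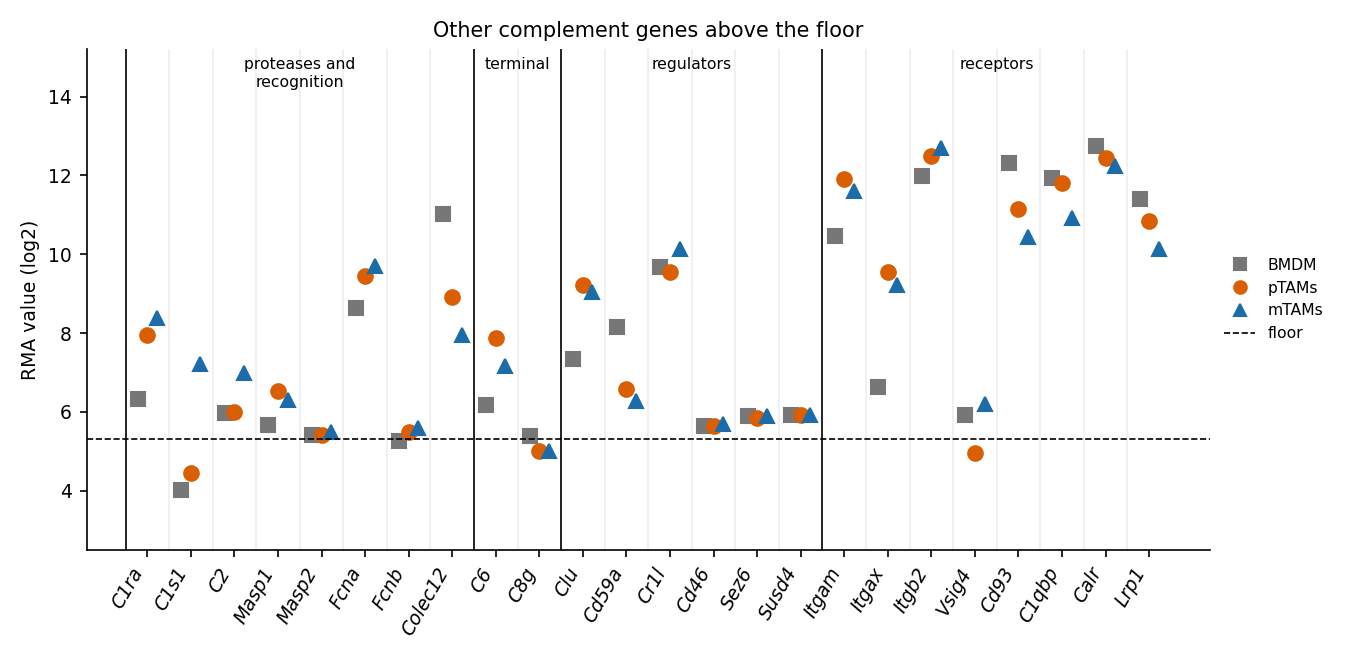
RMA values (vertical axis, log2) of the 24 other complement genes above the floor on at least 1 array (horizontal axis, grouped by role), with a symbol for each group and a dashed line at the floor (5.3). Levels of different genes are not comparable. *Itgax*, *Clu* and *C1ra* lie higher on both TAM arrays, *C1s1* in mTAMs alone, and *Colec12*, *Cd59a* and *Cd93* lie higher in BMDM.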

How the data were processed

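Total RNA of sorted macrophages was labeled with biotin and hybridised to Affymetrix mouse arrays, 1 array per group. The authors deposited log2 values made with RMA, which corrects background, quantile-normalizes the arrays and summarizes each probe set, so a shift of all transcripts cannot be seen. The version of RMA and a genome build are not given in the sources used here. Rows of the deposited table were 45037 probe sets, with array medians from 5.36 to 5.43. A single symbol was given for 34945 and several for 932, which were not used. The probe set of highest mean stood for a gene, and all were read for the members. The floor was the 95th percentile of 83 probe sets for olfactory, vomeronasal and bitter taste receptors. Genes above it on at least 1 of the arrays compared entered a comparison. The number of arrays limits the precision, and no model or p-value was used.

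The complement genes, the wider complement list, 12 lists of cell type markers and the rules for naming genes were chosen with earlier results of these data known. Named were all members, other complement genes above the floor, the 5 genes with a pattern most like C1q and at most 3 genes per marker list beside those at or below the floor, except that the genes called in the list of genes found with C1q were all named, after their values were seen. For 5 of the members a RefSeq promoter region (GRCm38.p6) was read. The calling step was tested on simulated arrays, which gives no error for the differences reported here. Alternatives were cyclic loess, quantile and median-centering normalization, probe sets averaged per gene, a floor raised by 1 log2 unit, no floor, values raised to the floor and a 3-fold threshold. Software was limma 3.58.1 in R 4.3.3, and pandas 2.3.3, numpy 2.4.6 and matplotlib 3.10.9 in Python 3.11.15.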

Additional observations from a re-analysis of the deposited data

How the results depend on the processing

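No paired analysis was possible because each group holds 1 array. No member called at least 2-fold higher or lower changed direction under the 8 alternatives. The C1q chains stayed between 2.79 and 4.71 above BMDM in pTAMs and between 2.34 and 4.54 in mTAMs, on the log2 scale. *Cfb* stayed between 3.92 and 4.61 in both comparisons, *Serping1* between 2.80 and 3.55 in mTAMs against BMDM, and *C3ar1* between -1.26 and -1.06 in mTAMs against pTAMs. The count of lower members in pTAMs against BMDM, 1 as reported, was 0 after cyclic loess normalization, with the mean of all probe sets and at 3-fold, and that in mTAMs against pTAMs was 0 at 3-fold. *C3ar1* was the gene concerned. The members' median in pTAMs against BMDM was 1.75 with no floor, which adds *Serping1*. In the wider list, 3-fold left 1 lower gene in place of 3 in pTAMs against BMDM, and 4 higher and 3 lower in place of 7 and 5 in mTAMs against BMDM. In mTAMs against pTAMs the higher genes went from 2 to 1 at 3-fold, with the higher floor and with values raised to the floor. With the higher floor, which leaves fewer genes, the medians of this list against BMDM were 0.49 in pTAMs and 0.84 in mTAMs. Over all genes, 3-fold gave 637 higher and 378 lower in pTAMs against BMDM, 862 and 575 in mTAMs against BMDM, and 294 and 58 in mTAMs against pTAMs, in place of 1041 and 890, 1368 and 1715, and 633 and 304. Genes near the floor, such as *Vsig4* and *Fcnb*, have little room to show a lower level.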

Other observations

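Markers of the remaining cell types were read as well. The linear signal of alveolar macrophage markers summed to 504 (BMDM), 3600 (pTAMs) and 15900 (mTAMs), on the TAM arrays mostly through *Chil3*. Of 9 markers, 8 were called higher in mTAMs against pTAMs (5.36% of all genes). Some of these calls rested on pTAM values below the floor and are bounds, from only 1.48-fold (*Cidec*) to 2.43-fold. *Plet1* was 4.29, 7.85 and 11.15 and *Car4* 3.43, 7.07 and 9.76, while the C1q chains were no higher in mTAMs than in pTAMs. Monocyte markers summed to 2410, 20300 and 23700. Higher than BMDM were 5 of 6 in pTAMs (8.78% of all genes) and 4 of 6 in mTAMs (11.5%), among them *Plac8* (7.04, 12.76 and 12.76). In mTAMs against pTAMs 1 of 6 was higher (5.36%) and 2 lower (2.58%), with a median log2 difference of -0.48. The higher one was *Chil3* (5.02, 11.20 and 13.50), which is also on the alveolar list and counts in both sums. Dendritic cells also make C1q, and their markers summed to 253, 1070 and 773, mostly through *Fscn1*, with *Xcr1* and *Itgae* below the floor and *Flt3* at 5.69, 5.72 and 5.72. Endothelial markers summed to 270, 407 and 267, with *Cldn5*, *Emcn*, *Tek* and *Tie1* below the floor. Of 3 compared, only *Pecam1* (3.92, 7.61 and 5.96) was called. It was higher than BMDM in pTAMs (8.78% of all genes) and mTAMs (11.5%), by bounds of 4.96-fold and 1.58-fold. In mTAMs against pTAMs it was lower (2.58%). *Cdh5* was 5.44 on each array and *Kdr* 7.08, 6.33 and 6.42. Lymphocyte markers summed to 300.0, 323 and 595, with *Cd3g*, *Ncr1*, *Cd79a*, *Cd79b* and *Ms4a1* below the floor. Of 3 compared, only *Cd3d* (5.86, 6.03 and 8.31) was higher in mTAMs, against BMDM (11.5% of all genes) and against pTAMs (5.36%). *Cd3e* (6.49, 6.52 and 6.57) and *Nkg7* (5.44, 5.71 and 5.85) were within 2-fold. General macrophage markers summed to 56300, 51600 and 47000, and the genes found with C1q to 31100, 35800 and 26700.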
